A study of Mus musculus with 11 samples.

Results

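The lysosome and autophagy genes described here are 36 mouse genes taken from a list of symbols: each symbol was matched to the RefSeq accessions of the count table, and the accession with the highest mean count stood for the gene. All 36 were in the table, which held 24143 genes, and all 36 were among the 13536 genes with enough counts to be tested. They included 3 MiT/TFE transcription factors, 2 lysosomal membrane proteins, 5 proteases, 4 glycosidases, 3 cholesterol or ion transport proteins, 5 subunits of the proton pump, the receptor Sqstm1, 2 kinases that start autophagy, 5 further autophagy genes, and Borcs5.

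RNA was sequenced from HT22 cells, a mouse hippocampal line immortalized with SV40, and from TR/TO-Klf9, an HT22 derivative stably transfected with pCDNA6:TR, which encodes the tetracycline repressor, and with pCDNA4:TO-Klf9, in which doxycycline releases transcription of the zinc finger factor Klf9. The derivative was kept in zeocin and blasticidin, which the labels do not give for the parent, so the drugs, the transgenes and the selection of the line cannot be told apart in a comparison of the lines. In both lines, cells were exposed for 8 hours to doxycycline (0.5 µg/ml) or to the DMSO vehicle, starting 24 hours after plating at about 250000 cells per well, and total RNA was primed with oligo-dT. Of the 11 samples, 6 were from the parent, with 3 per treatment, and 5 from the derivative, with 3 given vehicle and 2 given doxycycline; the labels do not call replicates separate cultures, so the p-values speak only of the spread among these samples, which may be technical.

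In the derivative, the columns of vehicle 3 and doxycycline 1 were identical at all rows. This doubly labelled library was left out of the tests and its values are given apart, which left 9 libraries with 10302431 to 18902784 counts each. Levels are given in CPM, read counts scaled to a common library size. Klf9 itself read 36.1 to 41.4 CPM in the 6 parent libraries, 48.7 and 44.1 in TR/TO-Klf9 vehicle 1 and 2, 46.2 in the doubly labelled library and 101 in TR/TO-Klf9 doxycycline 2. Of 12 microglia and macrophage markers, 10 averaged under 0.5 CPM and the complement genes C1qa and C1qc were at 0 in every library; the list summed to 4.94 to 7.33 CPM in the parent and 16.9 to 20.5 in TR/TO-Klf9, through Csf1r at 0.990 to 2.23 and 11.4 to 13.5 CPM. Of 10 neuron markers, 7 averaged under 0.5 CPM, and the list summed to 32.6 to 38.2 CPM in the parent and 13.7 to 22.2 CPM in TR/TO-Klf9. Fibroblast markers summed to 2435 to 3167 and 2979 to 3290 CPM, and astrocyte markers to 237 to 267 and 138 to 184 CPM, with Aqp4 at 0. Their part in the differences between the lines was not tested, and in bulk RNA fewer cells of a kind cannot be told apart from less RNA per cell.

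Lysosomes are acidic organelles in which hydrolases degrade material delivered by endocytosis and by autophagy. In autophagy a membrane forms around cytoplasm, closes, and fuses with the lysosome, a route on which neurons depend for clearing proteins and organelles. Tfeb and its relatives bind a short palindrome, the CLEAR element, in the promoters of many lysosomal genes, and the BORC complex on the lysosomal surface recruits Arl8 and kinesin to move lysosomes outward.

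RefSeq promoter windows on GRCm38.p6, from 250 bases before to 50 after a start site, were found for 30 of the 36 genes. The palindrome CACGTG, which forms the core of the CLEAR element and reads the same on both strands, occurred in the windows of 11 of these 30 genes (36.7%), compared with 8.09% of all genes with a window. The longer TCACGTGA, which contains it, occurred in 6 of 30 (20%) compared with 1.12%: Ctsa, Ctsd, Gla, Mcoln1, Atp6v0d1 and Atp6v1a. A still longer form of the CLEAR palindrome, which contains TCACGTGA, was also searched. It occurred in 0 of the 30 genes, compared with 0.37% of all genes, a share too low for 30 genes to show a deficit. The shares of 36.7% and 20% are thus for shorter parts of the element, not for this longer form. The following stretches show TCACGTGA in capitals for a protease, a glycosidase, a channel and a pump subunit, together with the 4 copies of CACGTG just upstream of Lamp1, the most abundant membrane protein gene of the set; strands are as the genes are read.
Ctsa, chr2:164833734-164833772, plus strand: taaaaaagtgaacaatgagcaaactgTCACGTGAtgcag
Ctsd, chr7:142387893-142387952, minus strand: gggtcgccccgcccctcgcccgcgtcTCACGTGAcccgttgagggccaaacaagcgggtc
Gla, chrX:134601167-134601226, minus strand: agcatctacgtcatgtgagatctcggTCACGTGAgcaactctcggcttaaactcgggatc
Mcoln1, chr8:3500447-3500506, plus strand: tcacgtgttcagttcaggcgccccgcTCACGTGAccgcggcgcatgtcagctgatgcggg
Atp6v1a, chr16:44139358-44139417, minus strand: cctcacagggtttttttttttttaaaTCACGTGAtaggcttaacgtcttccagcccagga
Lamp1, chr8:13159081-13159160, plus strand: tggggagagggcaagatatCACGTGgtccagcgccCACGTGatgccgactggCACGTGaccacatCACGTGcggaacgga

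KLF factors bind GC-rich boxes and CACCC sequences. The GC box GGGCGG or its complement was in the windows of 21 of the 30 genes (70%) compared with 38.2% of all genes, and CACCC or its complement in 18 (60%) compared with 59.8%. The background here and for CACGTG was all 27025 genes with a window. It included genes outside the 13536 tested, whereas all 36 members were tested. These shares were therefore not matched for expression. Borcs5, the member with the highest fold difference under doxycycline, held 2 GC boxes and 1 CACCC, in capitals here, in the 79 bases before 1 of its start sites; the CACCC follows the second box directly, without overlap.
Borcs5, chr6:134640861-134640939, plus strand: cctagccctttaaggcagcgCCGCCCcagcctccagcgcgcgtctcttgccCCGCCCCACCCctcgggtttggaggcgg
The other Borcs5 window held 0 GC boxes and 1 CACCC. The window of Sqstm1 held 3 GC boxes and 1 CACCC, and that of Npc2 held 3 GC boxes. Neither Sqstm1 nor Npc2 passed the doxycycline test in TR/TO-Klf9 with both vehicle libraries, as given below. A match is a description of the letters, not a bound site.

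Per length of transcript, the mean level over the 9 libraries was highest for the cysteine protease Ctsl, at 140.4 CPM per kb. Lamp1 followed at 130.3, the aspartic protease Ctsd at 114.1, the receptor Sqstm1 at 99.2 and the pump accessory subunit Atp6ap1 at 93.3 CPM per kb. Near the low end were the transcription factors Mitf, at 2.25, and Tfeb, at 5.33 CPM per kb. Summed over the 36 genes, levels were 3409 to 3803 CPM in the 6 parent libraries, 4495 in TR/TO-Klf9 vehicle 1, 3785 in vehicle 2, 3937 in the doubly labelled library and 4096 in doxycycline 2. Vehicle 1 therefore stood above the other 9 libraries, and vehicle 2 lay within the parent range. Parent vehicle 1 had the lowest sum, with Ctsl at 219 CPM where the other parent libraries had 272 to 310.5.

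**Figure D1:**
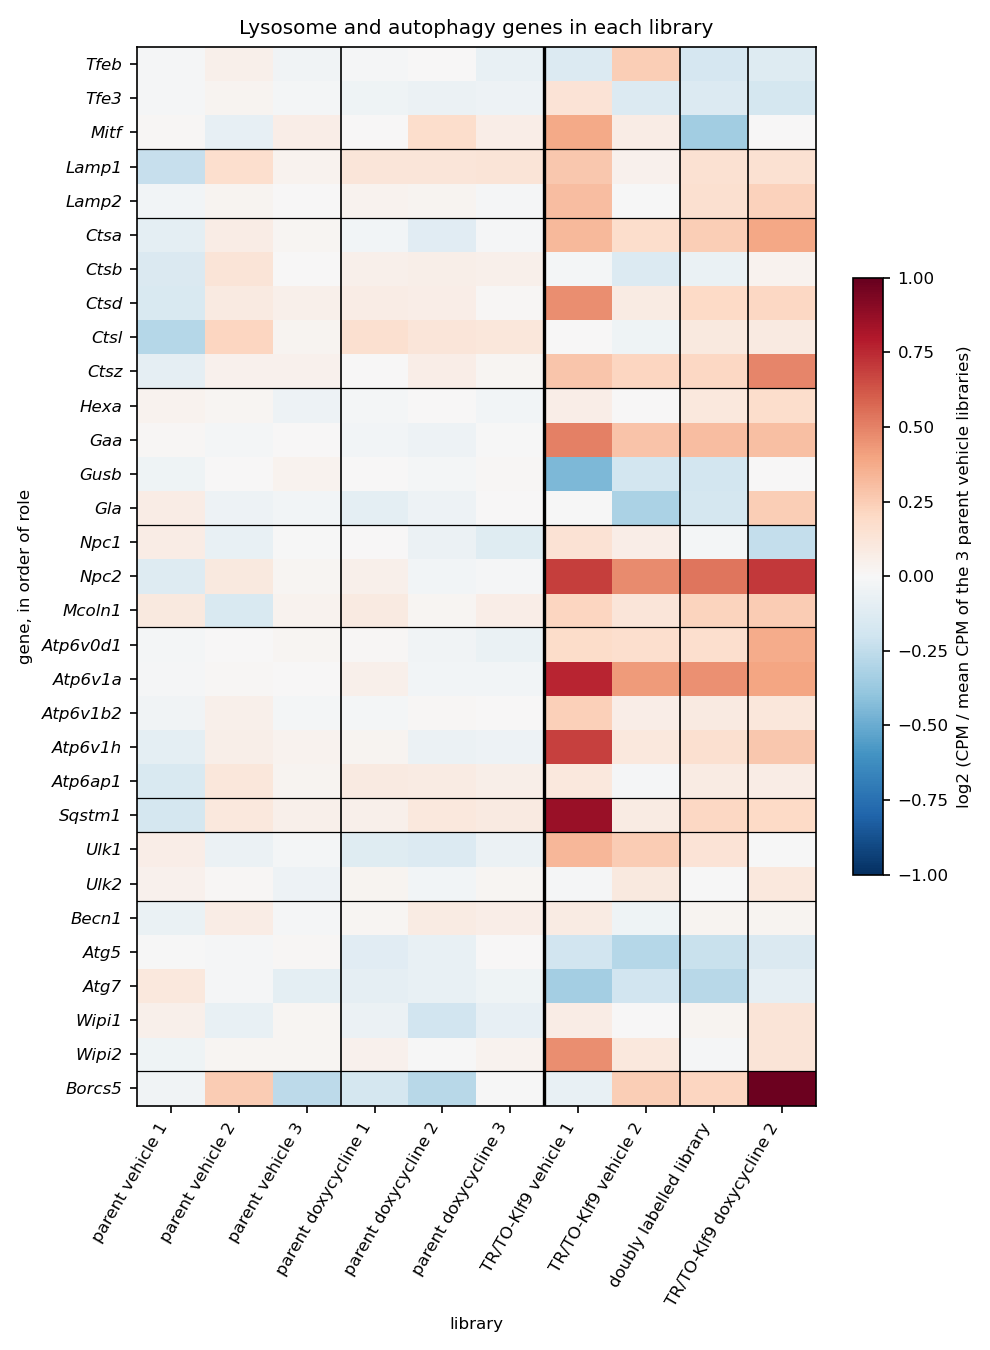
Log2 ratio of the CPM of 31 of the genes in each library (columns) to the gene's mean over the 3 parent vehicle libraries, with genes in rows by role and thin lines between roles; the doubly labelled library has its own column. The TR/TO-Klf9 vehicle 1 column is red for more genes than that of vehicle 2, and Borcs5 is darkest in TR/TO-Klf9 doxycycline 2.

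The TR/TO-Klf9 vehicle libraries differed from each other at these genes. Relative to vehicle 2, vehicle 1 was at least 1.25-fold higher for 8 of the 36 (22.2%), against 4.60% of the 10329 genes averaging at least 8 CPM, and at least 1.25-fold lower for 1 (2.78%), against 4.21%. The cut at 8 CPM was not applied to the members, so the shares are not fully matched. The median log2 ratio was 0.138 over the members and -0.015 over the 10329 genes, and 30 of 36 members (83.3%) were higher in vehicle 1, compared with 46.3% of those genes. The doubly labelled library, set against vehicle 2 in the same way, was 1.25-fold higher for 0 members and lower for 2, Tfeb and Mitf, with a median of 0.029. With 1 library against 1 there is no test of this difference. The members and the other lists below were chosen with earlier results of these data known, and vehicle 1 was set apart beforehand. These shares are therefore a description of the lists and no independent support.

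Sqstm1, which encodes p62 and carries ubiquitinated cargo to autophagosomes, had the highest ratio, 1.72-fold. It read 207, 252 and 242 CPM in the parent vehicle libraries, 242, 251 and 248 in parent doxycycline, 426 and 248 in TR/TO-Klf9 vehicle 1 and 2, 270.4 in the doubly labelled library and 268.5 in TR/TO-Klf9 doxycycline 2. Vehicle 1 stood apart, while the other TR/TO-Klf9 libraries lay at or a little above the parent values.
Atp6v1h, a regulatory subunit of the cytosolic sector of the proton pump, stood at 173 CPM in vehicle 1 and 116 in vehicle 2, a ratio of 1.495, with 101 to 112 in the parent vehicle libraries. Also past 1.25-fold were Ctsd at 1.30, Wipi2 at 1.29 and Atp6v1a at 1.27, and Tfeb was the one lower, at 0.768.

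Vehicle 1 gave the highest value of all 10 libraries for 16 members (44.4%, against 18.9% of genes tested) and the lowest for 3, Gusb and Atg7 among them (8.33%, against 14.4%). Across all genes at 8 CPM or more, the median absolute log2 ratio to vehicle 2 was 0.111 for vehicle 1 and 0.064 for the doubly labelled library. Of the 10329 genes at that level, 4.60% were at least 1.25-fold higher in vehicle 1 than in vehicle 2 and 4.21% lower. Of 149 other lysosome and autophagy genes at that level, 18 were at least 1.25-fold higher in vehicle 1 and 2 lower. These included the WIPI protein gene Wdr45 at 1.62-fold, the pump subunit Atp6v0c at 1.501-fold and the Batten disease gene Cln3 at 1.46-fold. Among the 12 other pump subunits at this level, 4 were at least 1.25-fold higher and none was 1.25-fold lower, with a median log2 ratio of 0.242. The median was 0.068 over the 149 genes and -0.015 over the 10329.

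**Figure D2:**
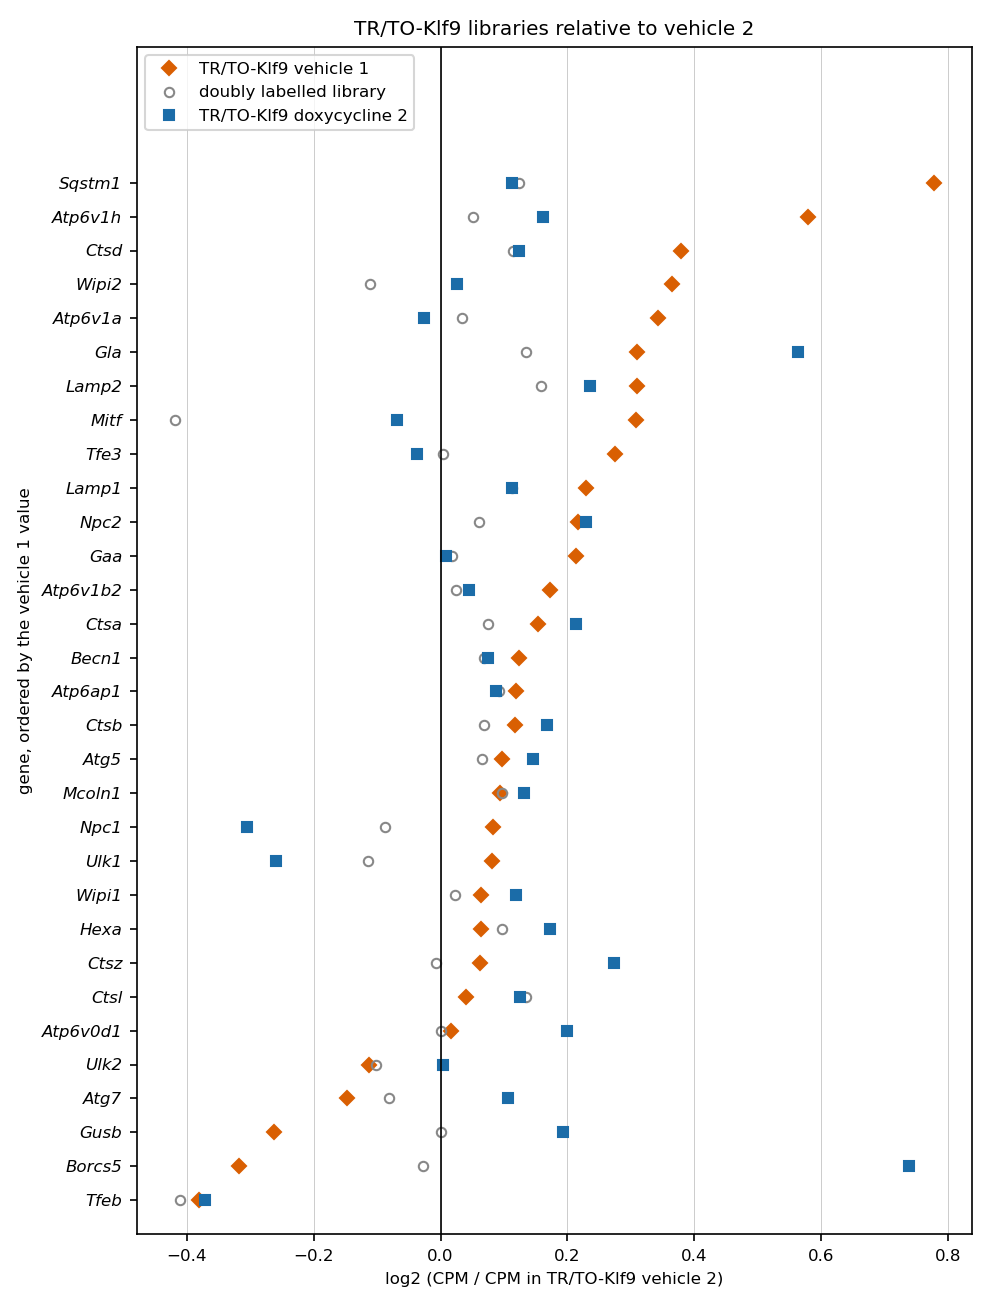
Log2 ratio of CPM in TR/TO-Klf9 vehicle 1 (diamonds), the doubly labelled library (circles) and doxycycline 2 (squares) to TR/TO-Klf9 vehicle 2, for 31 of the genes, ordered by the vehicle 1 value. Sqstm1, at 0.778, and Atp6v1h, at 0.58, stand highest for vehicle 1, while Borcs5, at 0.739, and Gla, at 0.563, are highest for doxycycline 2.

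The lines were next compared under vehicle, which asks how the derivative differs without induction. Of the 36 genes, 12 were higher in TR/TO-Klf9 and 3 lower by edgeR's quasi-likelihood test with Benjamini-Hochberg adjustment, which is 41.7% of members against 38.9% of all genes. By direction, 33.3% of members were higher against 18.8% of genes, and 8.33% were lower against 20.1%. The median log2 difference was 0.16 over the members and 0.01 over all genes. Without TR/TO-Klf9 vehicle 1, 8 members were higher (22.2%, against 16.1% of genes) and 4 lower (11.1%, against 18.1%), and the members' median was 0.087. In 10 members all 4 TR/TO-Klf9 libraries lay above all 6 parent libraries (27.8%, against 16.8% of genes), and in 1, Atg5, all lay below (2.78%, against 18.6%).

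Among the transcription factors none passed the test. Tfeb, the best known regulator of lysosomal genes, read 12.2 to 12.97 CPM in parent vehicle and 11.4 and 14.9 in TR/TO-Klf9 vehicle. Its relatives Tfe3 and Mitf had differences of 0.01 ± 0.06 and 0.23 ± 0.12 on the log2 scale (± SE throughout). Without vehicle 1, Tfe3 was lower in TR/TO-Klf9 by edgeR's quasi-likelihood test (log2 difference -0.13, adjusted p = 0.0398).

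Of the membrane glycoproteins, Lamp1 read 232, 305 and 279 CPM in parent vehicle and 328 and 279.8 in TR/TO-Klf9 vehicle, so the groups overlapped, and its log2 difference was 0.17 ± 0.10 with an adjusted p of 0.193 by edgeR. Lamp2, which also serves chaperone-mediated autophagy, had a difference of 0.16 ± 0.07 that did not pass (adjusted p = 0.0731, edgeR).

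Among the proteases, Ctsz, a cysteine carboxypeptidase, read 85.4, 93.5 and 93.8 CPM in parent vehicle and 110.4 and 106 in TR/TO-Klf9 vehicle, with no overlap. It was higher by 0.25 ± 0.05 (adjusted p = 0.00139, edgeR's quasi-likelihood test). Ctsa, which protects lysosomal galactosidase and sialidase from degradation, was higher by 0.26 ± 0.06, with 90.7 to 102 CPM in parent vehicle and 122 and 109.5 in TR/TO-Klf9. Ctsd was higher by 0.29 ± 0.10 (adjusted p = 0.0343, edgeR), but its values of 310.1 and 239 CPM straddled the parent maximum of 239.7, and without vehicle 1 the difference was 0.09 with an adjusted p of 0.379. Ctsb and Ctsl, both cysteine endopeptidases, did not pass, at -0.07 ± 0.07 and -0.01 ± 0.11. The strand setting of the counting is unknown, and several of the 36 genes overlap another gene in RefSeq, so reads of these pairs may be mixed: Ctsa (with Neurl2 and Pltp), Ctsb (Fdft1), Ctsz (Nelfcd), Hexa (Tmem202), Npc1 (Rmc1), Atp6v1b2 (Slc18a1), Becn1 (Cntd1) and Atg5 (Mir1929).

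The glycosidases went both ways. Gaa, the acid glucosidase that degrades glycogen, read 124.5, 122 and 123.5 CPM in parent vehicle, 121, 119 and 123 in parent doxycycline, 174 and 150.5 in TR/TO-Klf9 vehicle, 152 in the doubly labelled library and 151.5 in TR/TO-Klf9 doxycycline 2. Every TR/TO-Klf9 library lay above every parent library, and the difference under vehicle was 0.40 ± 0.06 (adjusted p = 2.95e-05, edgeR's quasi-likelihood test). Gusb, the glucuronidase of glycosaminoglycan breakdown, read 128, 132.5 and 135 CPM in parent vehicle but 96.8 and 116 in TR/TO-Klf9 vehicle. It was lower by 0.31 on the log2 scale (a difference of -0.31 ± 0.06, adjusted p = 0.000957). Gla, which removes galactose from glycolipids, had a difference of -0.16 ± 0.09 that did not pass with both vehicle libraries; without vehicle 1 it was lower (-0.32, adjusted p = 0.0153, edgeR). Hexa, the alpha subunit of hexosaminidase A, did not pass (0.04 ± 0.05).

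Npc2, the luminal protein that hands cholesterol to Npc1, read 73.6, 85.9 and 81.4 CPM in parent vehicle and 83.2, 79.0 and 79.5 in parent doxycycline. In TR/TO-Klf9 it read 129.7 and 112 under vehicle, 117 in the doubly labelled library and 131 in doxycycline 2, all above the parent. The difference under vehicle, 1.504-fold in mean CPM, was 0.60 ± 0.07 on the log2 scale with an adjusted p of 5.3e-06 by edgeR. Its membrane partner Npc1 (0.10 ± 0.06) and the calcium channel gene Mcoln1 (0.16 ± 0.07) did not pass, although all TR/TO-Klf9 values of Mcoln1, 43.1 to 47.2 CPM, lay above the 35.7 to 42.4 of the parent.

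For the proton pump, Atp6v1a, the subunit that hydrolyses ATP, read 130.3, 132 and 131 CPM in parent vehicle, 136, 129 and 129 in parent doxycycline, 223 and 176 in TR/TO-Klf9 vehicle, 179.9 in the doubly labelled library and 172.5 in TR/TO-Klf9 doxycycline 2. No TR/TO-Klf9 value reached down to the parent range, and the log2 difference under vehicle was 0.60 ± 0.07 (adjusted p = 1.66e-05, edgeR's quasi-likelihood test). Atp6v0d1, of the membrane sector, was higher by 0.18 ± 0.05 (adjusted p = 0.0135, edgeR, but 0.102 by DESeq2), and Atp6v1b2, a nucleotide-binding subunit, by 0.16 ± 0.05, although the latter was 0.07 with an adjusted p of 0.27 without vehicle 1. Atp6v1h, at 0.43 ± 0.16, did not pass (adjusted p = 0.0718, edgeR), and nor did Atp6ap1, at 0.05 ± 0.07.

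Sqstm1, 1.44-fold higher in mean CPM, did not pass the test (log2 difference 0.53 ± 0.23, adjusted p = 0.121, edgeR). The difference rests on vehicle 1: without that library it was 0.09 (adjusted p = 0.407, edgeR). Without vehicle 2, with vehicle 1 then the only library of its group and assumed to vary like the others, it was 0.86 with an adjusted p of 1.35e-08.

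Ulk1, the kinase that starts autophagosome formation, read 58.7, 53.8 and 55.2 CPM in parent vehicle and 70.5 and 66.6 in TR/TO-Klf9 vehicle, and was higher by 0.29 ± 0.06 (adjusted p = 0.000997, edgeR). Its paralogue Ulk2 did not pass (0.04 ± 0.06). Wipi2, which reads phosphoinositide on the forming membrane, was higher by 0.30 ± 0.08, but by 0.11 with an adjusted p of 0.107 without vehicle 1, and Wipi1 did not pass (0.03 ± 0.06).
Both conjugation genes were lower in TR/TO-Klf9. Atg5, part of the complex for lipid conjugation in autophagy, read 75.3, 75.1 and 76.0 CPM in parent vehicle, 69.8, 71.9 and 75.7 in parent doxycycline, 66.1 and 61.8 in TR/TO-Klf9 vehicle, 64.7 in the doubly labelled library and 68.3 in doxycycline 2, without overlap between the lines. Its difference was -0.24 ± 0.06 (adjusted p = 0.00297, edgeR). Atg7, the activating enzyme of that conjugation, had a difference of -0.27 ± 0.07 (adjusted p = 0.00691), and of -0.20 with an adjusted p of 0.0547 without vehicle 1. Becn1, of the lipid kinase complex (0.02 ± 0.05), and Borcs5 (0.11 ± 0.16) did not pass.

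**Figure D3:**
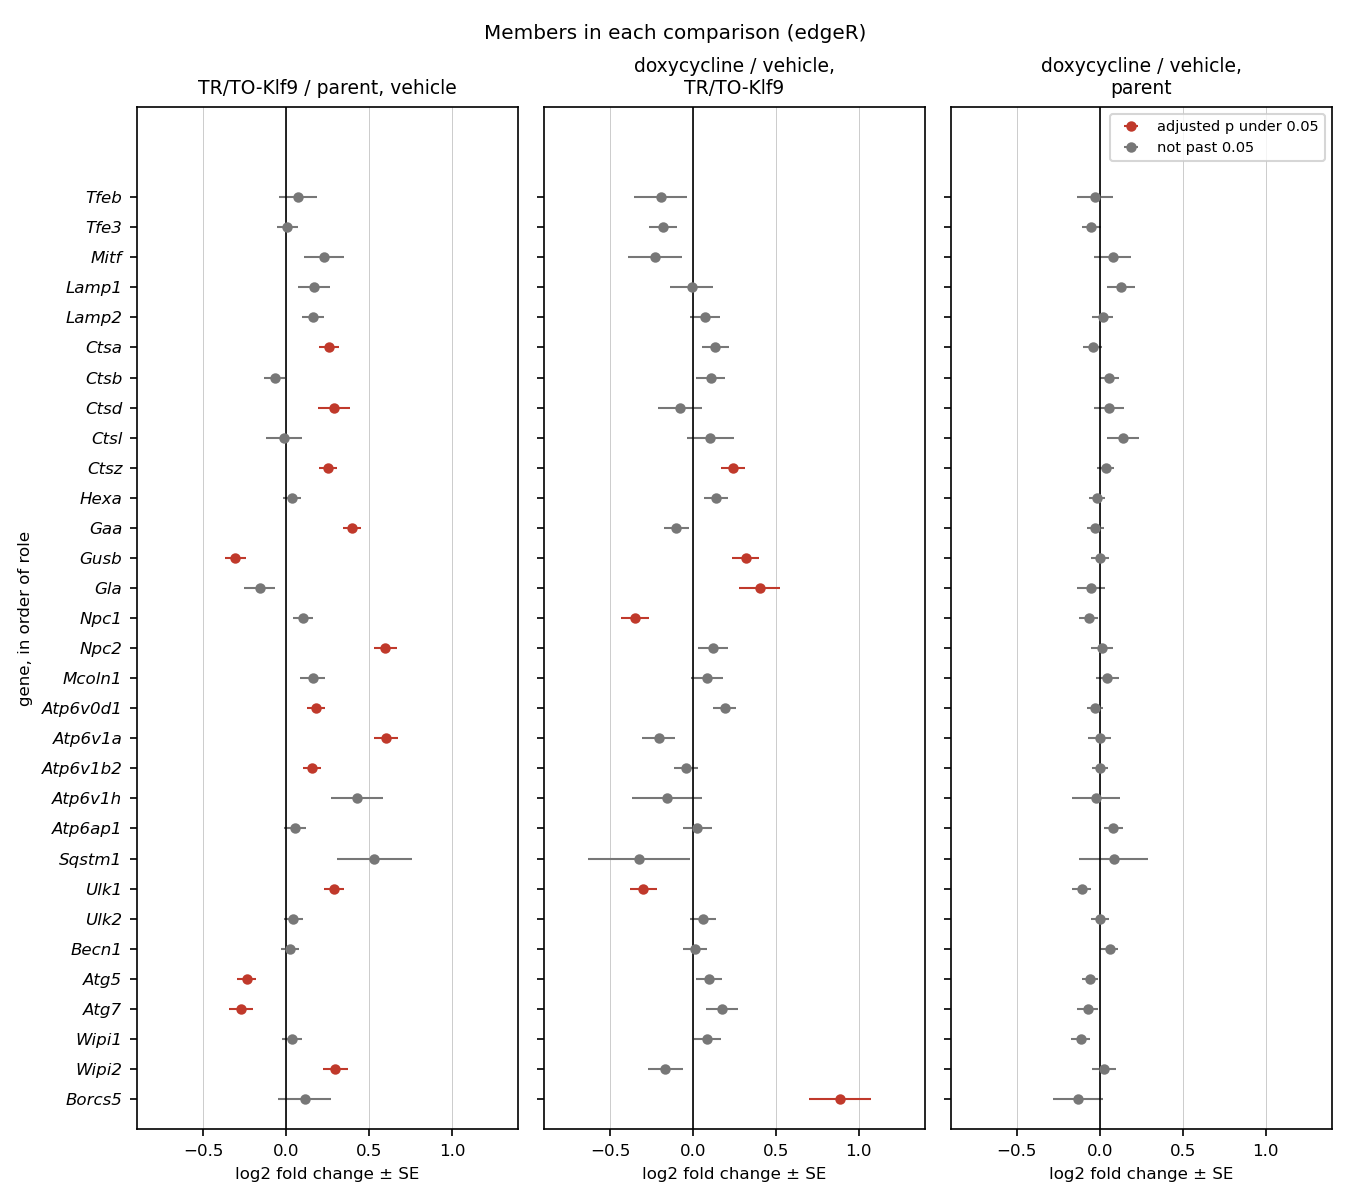
Log2 fold change (points) and SE (bars) of 31 of the genes by edgeR for TR/TO-Klf9 over parent under vehicle, doxycycline over vehicle in TR/TO-Klf9, and doxycycline over vehicle in the parent, with red for an adjusted p under 0.05. The first panel has 13 red points, the second 6 and the third 0.

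Doxycycline was then compared with vehicle within each line, the parent serving as the measure of the drug without the transgene. In the parent, 0 of the 36 genes and 0% of all genes passed edgeR's quasi-likelihood test after adjustment; 293 of 13536 genes had an unadjusted p under 0.05 by edgeR and 39 by DESeq2. The members' log2 changes there ran from -0.13 to 0.14.

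In TR/TO-Klf9, 4 of the 36 genes rose and 2 fell under doxycycline by edgeR's quasi-likelihood test with Benjamini-Hochberg adjustment. That is 16.7% of members against 17.8% of all genes, 11.1% against 6.44% for rises and 5.56% against 11.4% for falls, so the share of members called was near the background. The median log2 change was 0.04 over the members and -0.01 over all genes. Doxycycline 2 was the only library of its group and was assumed to vary like the others; with a fit of the TR/TO-Klf9 vehicle and doxycycline libraries alone, 0 members passed, as against 73 of 13279 genes (0.550%). With the doubly labelled library as doxycycline or under both labels, 0 members and 0 of all genes passed by edgeR, with 2044 and 1480 genes at an unadjusted p under 0.05. These placements count that library as doxycycline. Its Klf9 level of 46.2 CPM was nearer to vehicle 1 and 2 (48.7 and 44.1) than to doxycycline 2 (101). With it as vehicle only, doxycycline 2 was alone in its group. The median log2 change was then 0.06 over the members and 0.01 over all genes. With each library's trend on transcript length removed, 3 members (8.33%, against 10.8% of genes) passed: Borcs5, Gla and Gusb.

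Borcs5, which encodes the lipid-anchored BORC subunit myrlysin, rose most. Its values were 7.22, 8.81 and 6.20 CPM in parent vehicle, 6.55, 6.10 and 7.41 in parent doxycycline, 7.03 and 8.77 in TR/TO-Klf9 vehicle, 8.595 in the doubly labelled library and 14.6 in TR/TO-Klf9 doxycycline 2. The last stood above every other library and the other 9 overlapped. Mean CPM was 1.85-fold higher, with a log2 change of 0.89 ± 0.19 (adjusted p = 0.0044, edgeR's quasi-likelihood test) in TR/TO-Klf9 and -0.13 ± 0.15 in the parent. The difference of these responses between the lines was 1.02 ± 0.24 (adjusted p = 0.0142, edgeR), and Borcs5 was the only member of 36 to pass that test (2.78%, against 9.67% of all genes, 2.75% with a higher and 6.92% with a lower response in TR/TO-Klf9). DESeq2 gave an adjusted p of 0.0526 for the difference, and removal of the length trend gave 0.87 ± 0.24 with 0.0501.

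**Figure D4:**
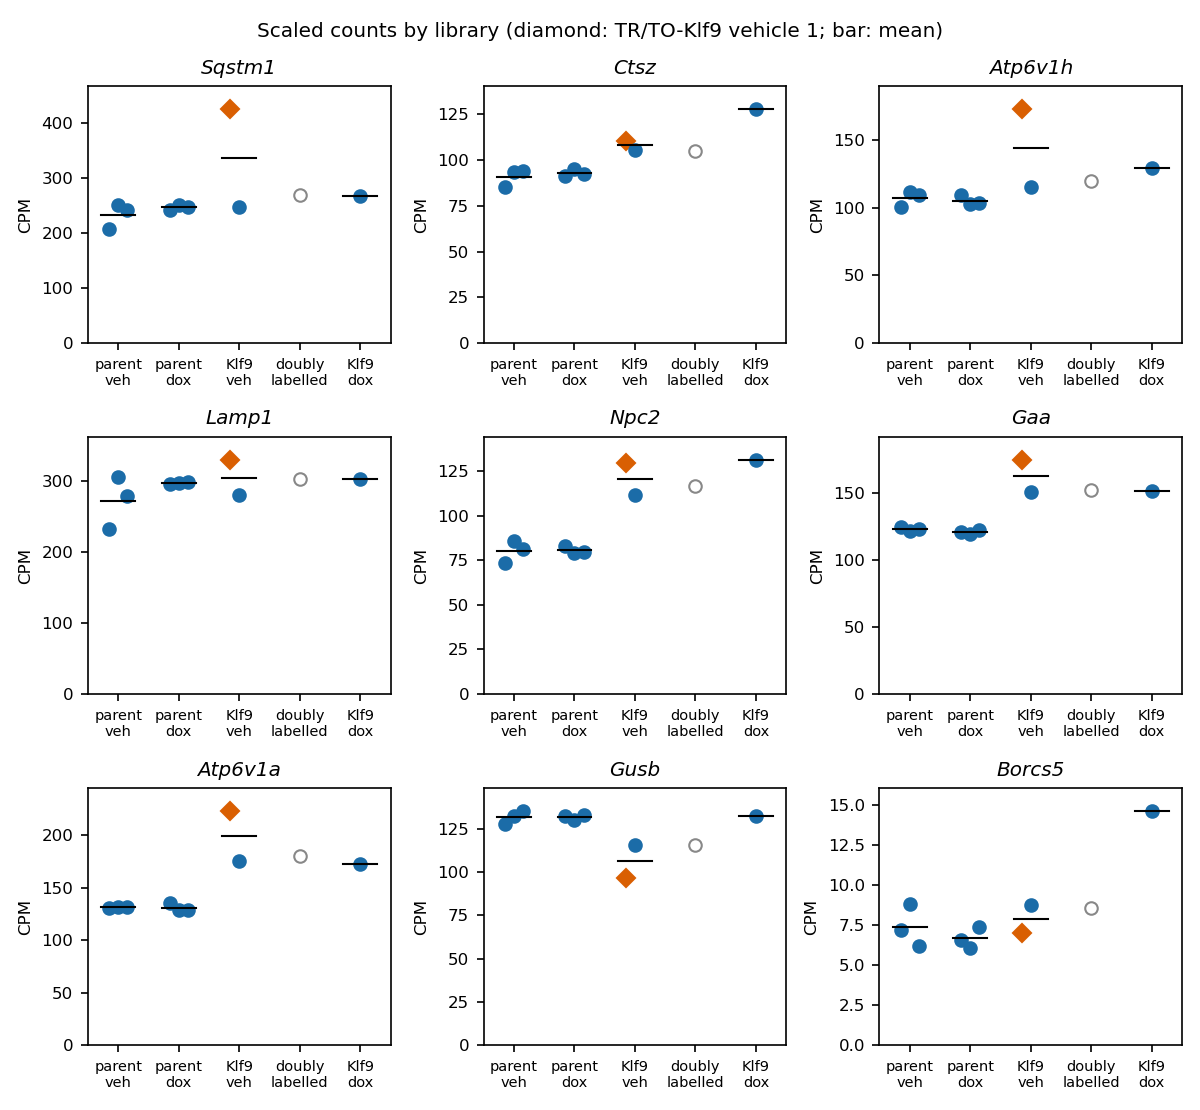
CPM of 9 of the genes in each library, by line and treatment (points), with group means (bars), TR/TO-Klf9 vehicle 1 as a diamond and the doubly labelled library as an open circle. Sqstm1 and Atp6v1h are highest in vehicle 1, Ctsz, Npc2, Gaa and Atp6v1a lie above the parent in all TR/TO-Klf9 libraries, and Borcs5 in doxycycline 2 at 14.6 CPM.

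Gla and Gusb rose as well, and so did Ctsz, but DESeq2 called neither Gla nor Ctsz. Gla read 25.3 and 20.4 CPM in TR/TO-Klf9 vehicle, 22.4 in the doubly labelled library and 30.2 in doxycycline 2, above the 23.8 to 26.7 of the parent libraries, and its log2 change was 0.40 ± 0.12 (adjusted p = 0.0315, edgeR). Without vehicle 2 it was 0.27 with an adjusted p of 0.0805, and without vehicle 1 it was 0.56. Gusb read 96.8 and 116 CPM, 116 in the doubly labelled library and 133 in doxycycline 2, within the parent range of 128 to 135; its log2 change was 0.32 ± 0.08 (adjusted p = 0.0154), and 0.19 without vehicle 1. Ctsz rose from 110.4 and 106 CPM to 128, a log2 change of 0.24 ± 0.07 (adjusted p = 0.0265, edgeR), which was 0.14 with an adjusted p of 0.197 once the length trend was removed.

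Npc1 and Ulk1 fell, although DESeq2 did not call Ulk1. Npc1, the membrane protein that exports cholesterol from the lysosome, read 73.4 and 69.3 CPM in TR/TO-Klf9 vehicle, 65.2 in the doubly labelled library and 56.1 in doxycycline 2, where the parent libraries had 60.8 to 69.7. The last value was below all others, and the log2 change was -0.35 ± 0.08 (adjusted p = 0.0103, edgeR's quasi-likelihood test). Ulk1 read 70.5 and 66.6 CPM, then 61.5 in the doubly labelled library and 55.7 in doxycycline 2, a log2 change of -0.30 ± 0.08 (adjusted p = 0.0184). With the length trend removed neither passed, at -0.22 (adjusted p = 0.0905) and -0.18 (adjusted p = 0.161).

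The remaining 30 genes did not pass, and among them Sqstm1 had the lowest log2 change, -0.33 ± 0.31. Sqstm1 depended on which vehicle library was used: the change was 0.11 without vehicle 1 (adjusted p = 0.443) and -0.65 without vehicle 2 (adjusted p = 6.27e-05, edgeR). Without vehicle 1, 9 members rose (25%, against 8.11% of genes) and 2 fell (5.56%, against 14.6%), with Lamp2, Npc2, Ctsa and Atp6v0d1 among the additions. Without vehicle 2, 4 rose (11.1%, against 12.5%) and 10 fell (27.8%, against 15.7%). In single libraries, doxycycline 2 lay above vehicle 1, vehicle 2 and the doubly labelled library for 16 members (44.4%, against 32.4% of genes) and below all of them for 4 (11.1%, against 34.3%).

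Beyond the 36, 10 lists of other lysosome and autophagy genes held 168 genes in the table, of which 161 were tested. Between the lines under vehicle 43 were higher and 27 lower in TR/TO-Klf9 (43.5%, against 38.9% of all genes), with a median log2 difference of 0.08; without vehicle 1 the counts were 34 and 27. Under doxycycline in TR/TO-Klf9, 6 rose and 18 fell (14.9%, against 17.8%), with 19 rises and 18 falls without vehicle 1 and 6 rises and 8 falls with the length trend removed. In the parent 0 passed by edgeR. The response differed between the lines for 19 (6 higher and 13 lower in TR/TO-Klf9, 11.8% against 9.67%), and for 8 with the length trend removed. DESeq2 also called 55 of the 70 genes called between the lines, 17 of the 24 called under doxycycline and 8 of the 19 whose response differed; with only the TR/TO-Klf9 vehicle and doxycycline libraries fitted, 0 of the 24 passed by edgeR.

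Of the 9 tested genes that sort hydrolases to the lysosome, 3 were higher and 3 lower between the lines (33.3% each, against 18.8% and 20.1% of all genes), with a median of -0.09. Igf2r, the large receptor for mannose 6-phosphate, read 17.8 to 23.8 CPM in the 6 parent libraries, 5.39 and 4.68 in TR/TO-Klf9 vehicle, 2.84 in the doubly labelled library and 2.15 in doxycycline 2. It was lower in TR/TO-Klf9 by 2.07 on the log2 scale (-2.07 ± 0.14, adjusted p = 8.58e-09, edgeR), and it fell under doxycycline (-1.23 ± 0.29, adjusted p = 0.00833). Gnptab, of the enzyme that makes the mannose 6-phosphate tag, was lower (-0.79 ± 0.07), while Nagpa, which uncovers the tag, was higher by 0.44 ± 0.07.

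Autophagy genes outside the 36 also differed in both directions between the lines, but more were higher than lower in TR/TO-Klf9. Of 15 tested genes of initiation and nucleation, 5 were higher and 1 lower. Of 8 conjugation genes 2 were higher and 1 lower, and of 13 receptor genes 5 were higher and 2 lower. In each list the share higher was above the 18.8% of all genes, and the share lower was below the 20.1%. The genes named here include all of the lower ones but not all of the higher ones. Retreg1, a receptor for autophagy of the endoplasmic reticulum, read 14.9 to 18.02 CPM in the parent and 2.49 to 3.44 in all TR/TO-Klf9 libraries, a log2 difference under vehicle of -2.48 ± 0.15 (adjusted p = 1.78e-09, edgeR). Atg4a, a protease of the conjugation step, was lower (-1.0005 ± 0.19), and Atg12, the partner that is joined to Atg5, was higher by 0.61 ± 0.11, or 0.36 without vehicle 1. The conjugating enzyme Atg3 was higher by 0.26 ± 0.05 and the mitophagy kinase Pink1 by 0.51 ± 0.11, while the mitophagy receptor Bnip3 (-0.63 ± 0.19) and Nrbf2, of the lipid kinase complex (-0.59 ± 0.12), were lower. Wdr45 (0.54 ± 0.16) and Atg14, of the same complex as Nrbf2 (0.44 ± 0.13), were higher but had adjusted p-values of 0.34 and 0.287 without vehicle 1. Of all genes, 18.8% were higher and 20.1% lower, and 38.9% were called in either direction. The share called was 45.2% among the 31 tested hydrolases. It was below that of all genes among 20 membrane and transport proteins and, at 23.1%, among the other 13 pump subunits. Of the hydrolases 9 were higher and 5 lower. The higher ones included the peptidase Dpp7 at 0.52 ± 0.11 and Idua, of glycosaminoglycan breakdown, at 0.52 ± 0.10. Dpp7 was 1.33-fold higher in vehicle 1 than in vehicle 2 (51.8 and 39.1 CPM), with 29.4 to 34.9 CPM in parent vehicle. Of 20 membrane and transport proteins 4 were higher and 3 lower. Among these were the amino acid exporter Slc66a1 at 0.53 ± 0.10, the potassium channel Tmem175 at 0.48 ± 0.08 and the tetraspanin Cd63 at -0.33 ± 0.08. Slc66a1 was 1.31-fold higher in vehicle 1 than in vehicle 2 (35.6 and 27.2 CPM), with 20.8 to 22.8 CPM in parent vehicle. The other 13 pump subunits had 2 higher, Atp6v1d (0.30 ± 0.10) and Atp6ap2 (0.26 ± 0.09), and 1 lower, Atp6v0a2 (-0.21 ± 0.05), and none of these passed without vehicle 1 (adjusted p = 0.631, 0.459 and 0.0639, edgeR).

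Around lysosome positioning, genes went both ways. Borcs8 rose under doxycycline in TR/TO-Klf9, from 16.4 and 17.2 CPM to 23.9 with 17.8 in the doubly labelled library (log2 change 0.51 ± 0.12, adjusted p = 0.00869, edgeR), and its response differed from that of the parent by 0.72 ± 0.15 (adjusted p = 0.00705); with the length trend removed the change was 0.37 with an adjusted p of 0.0597. Rufy3, an Arl8 effector, fell from 72.7 and 75.2 CPM to 50.4 (-0.55 ± 0.07, adjusted p = 0.000136), and the kinesin heavy chain gene Kif5b fell by 0.39 on the log2 scale, which did not pass with the length trend removed (adjusted p = 0.0806). Between the lines, Bloc1s1 and Borcs7 were lower in TR/TO-Klf9 (-0.72 ± 0.13 and -0.64 ± 0.08), and Snapin was higher by 0.35 ± 0.06. In all, 1 of the 15 tested genes rose and 2 fell under doxycycline (20% called, against 17.8% of all genes).

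Among genes for fusion of autophagosomes with lysosomes, 4 of 12 were higher and 2 lower between the lines (33.3% and 16.7%, against 18.8% and 20.1% of all genes): the SNARE genes Stx17 (-0.79 ± 0.07) and Vamp8 (-0.41 ± 0.06) were lower and their partner Snap29 was higher by 0.40 ± 0.07.

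At the lysosomal surface, where mTORC1 senses amino acids, 0 of 25 tested genes rose and 6 fell under doxycycline in TR/TO-Klf9 (0% and 24.0%, against 6.44% and 11.4% of all genes). Fnip2, a partner of folliculin, fell from 124.8 and 123 CPM to 77.6 (log2 change -0.67 ± 0.07, adjusted p = 2.06e-05, edgeR's quasi-likelihood test), with 104 to 116 in the parent libraries. Tsc1, of the complex that restrains mTORC1, fell from 81.3 and 82.4 to 54.4 CPM (-0.59 ± 0.08), and Rptor, the mTORC1 scaffold, by 0.48 ± 0.09 on the log2 scale, which did not pass with the length trend removed (adjusted p = 0.0546). Of the hydrolases, Smpd1, the acid sphingomyelinase, rose from 44.8 and 51.3 CPM to 66.0 (0.46 ± 0.09, adjusted p = 0.00304), and Arsb, a sulfatase, fell (-0.30 ± 0.08, adjusted p = 0.0162, and 0.0512 with the length trend removed). Acp2, a lysosomal acid phosphatase, responded differently in the lines, by 0.30 ± 0.09 (adjusted p = 0.0432 by edgeR and 0.196 by DESeq2). Between the lines, 4 of the 25 genes of the mTORC1 list were higher in TR/TO-Klf9 and 6 lower, with a median log2 difference of 0.05. The share called, 40%, was near the 38.9% of all genes. Among the lower were Mios (-0.47 ± 0.07), Nprl3 (-0.39 ± 0.08) and Sesn1 (-0.32 ± 0.09), which act in amino acid signalling to mTORC1.

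In the fusion list, 1 gene rose and 3 fell under doxycycline in TR/TO-Klf9 (8.33% and 25% of 12, against 6.44% and 11.4% of all genes). Tecpr1 and Epg5, which tether autophagosomes to lysosomes, fell by 0.53 each on the log2 scale, Epg5 not passing with the length trend removed (adjusted p = 0.158), and Vamp8 rose by 0.40 ± 0.09 (adjusted p = 0.00483, and 0.0569 with the trend removed). The lysosomal membrane protein gene Ostm1 rose by 0.27 ± 0.07, the autophagy protease gene Atg4d by 0.26 ± 0.07 and the mitophagy receptor gene Fundc1 by 0.30 ± 0.09, the last not passing with the trend removed (adjusted p = 0.084). Abca2, Gga3, Atg2b, Atg2a and Wdfy3 fell by 0.40, 0.22, 0.33, 0.30 and 0.48 on the log2 scale, and none of the 5 passed with the trend removed (adjusted p from 0.09 to 0.5, edgeR). Gnptg, a subunit of the tagging enzyme, was not called in TR/TO-Klf9 alone, but its responses differed between the lines by 0.43 ± 0.13 (adjusted p = 0.0483, edgeR), which did not pass with the trend removed (0.32, adjusted p = 0.167) or by DESeq2 (adjusted p = 0.213).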

How the data were processed

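The deposited values are whole numbers, read counts by RefSeq accession with no normalization, for 11 samples of total RNA. The submitters' processing notes name CASAVA, FastQC, Bowtie, DESeq and build mm8; the counter, strand and annotation release were not given in the sources used here. Accessions were named with a RefSeq GRCm38 table; 431 of 33815 rows stayed unnamed, with 0.739% to 0.773% of counts. The row with the highest mean was kept per gene (24143 genes), since rows of a gene can share reads. Depth was 10302431 to 18902784 counts per library.

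Samples were grouped by title. TR/TO-Klf9 vehicle 3 and doxycycline 1, identical in every row, were left out, giving 9 libraries. Genes were filtered by group (filterByExpr), scaled with TMM factors, then tested in edgeR 4.0.16 under R 4.3.3 (robust glmQLFit, glmQLFTest, 4 group means, 5 residual degrees of freedom), with Benjamini-Hochberg adjustment over 13536 genes and a threshold of 0.05. Each SE was obtained as the absolute log2 change divided by the square root of F. The code was tested on simulated data. Alternatives were DESeq2 1.42.0, RLE scaling, other filters, a replicate block, only the groups compared, removal of a transcript length trend (loess, span 0.4), other uses of the identical library, summed rows, and leaving out each library; 3 combined settings were added after seeing the data. Transcript lengths came from GENCODE M21 by accession.

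The 36 members and all lists were chosen with earlier results of these data known. From each pathway list, up to 3 genes per comparison past the threshold with the largest log2 change and at least 5 CPM are candidates for naming. A planned comparison of protein sequences was not run. Values of 5 members and of 1 listed gene are not reported here, but these genes stay in the counts, sums and medians.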

Additional observations from a re-analysis of the deposited data

Results flagged for a closer look

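Borcs5 stood out because its response to doxycycline was tested to differ between the lines: the log2 change in TR/TO-Klf9 minus that in the parent was 1.02 ± 0.24 (adjusted p = 0.0142, edgeR's quasi-likelihood test), with 14.6 CPM in the only TR/TO-Klf9 doxycycline library against 6.10 to 8.81 CPM in the other 9 libraries. The value rests on that library; without TR/TO-Klf9 vehicle 1 the difference was 0.87 and without vehicle 2 it was 1.2013. Of 21 alternatives, 5 lost the call: DESeq2, the length trend removed with or without vehicle 1, and the identical library as doxycycline or under both labels, with differences down to 0.66 and adjusted p-values up to 0.777. No cause was tested.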

How the results depend on the processing

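For doxycycline in TR/TO-Klf9, the 6 members called became 3 with DESeq2, 3 with the length trend removed, 0 with only the groups compared, 0 with the identical library under both labels and 0 with it as doxycycline; leaving out 1 library gave 6 to 14. Combined settings, added after seeing the data, gave 3 with that library as vehicle and the length trend removed, 3 without vehicle 1 and with the trend removed, and 10 without vehicle 1 and with that library as vehicle. For the difference between lines, the 1 call became 0 with DESeq2, 3 with no filter, 2 with the stricter filter, 0 with the length trend removed, 0 under both labels, 2 as vehicle and 0 as doxycycline; leaving out 1 library gave 1 to 12, and without vehicle 1 and with that library as vehicle there were 6. Between the lines, leaving out 1 library gave 12 to 23 against 15, and the other alternatives stayed within 1.5 times. In the parent 0 members passed under every alternative run. Over all genes, the 2410 calls for doxycycline in TR/TO-Klf9 became 1263 with DESeq2, 1458 with the trend removed, 73 with only the groups compared, 3800 without vehicle 2, and 0 with the identical library as doxycycline or under both labels; the 1309 for the difference became 672 with DESeq2, 580 with the trend removed and 0 in the same uses of the identical library. Of the members named, 1 changed direction with a call on either side: Tfe3 between the lines, 0.01, became -0.13 without vehicle 1 (0.13 without vehicle 2), -0.14 without vehicle 1 and with the trend removed, and -0.13 without vehicle 1 and with the identical library as vehicle. Uncalled on both sides, 13 members changed sign in some alternative for doxycycline in TR/TO-Klf9, Sqstm1, Atp6v1h and Ctsd among them, 16 for the difference and 11 between the lines. The cause was not tested. Same-numbered parent samples did not deviate together (correlations -0.0463, 0.0105 and 0.0186), so the numbers are not taken as pairs; with the replicate block, 3 members were called under doxycycline in TR/TO-Klf9 (1381 genes) and 607 genes for the difference. Called between the lines under all 23 alternatives, among the genes named, were Atg5, Atp6v1a, Ctsa, Ctsz, Gaa, Gusb, Npc2 and Ulk1. With 1 doxycycline and 2 vehicle libraries, changes within TR/TO-Klf9 rest on single libraries, and Borcs5 on low counts.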
